A study of Danio rerio with 24 samples.

Results

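Zebrafish larvae that carry only the neuronal driver *elavl3:Gal4* were compared between 3 and 5 days post-fertilization (dpf), with every gene of the deposited count table taken into account. The comparison used 8 of the 24 RNA-Seq libraries of the series, 4 biological replicates at each age, and 25653 genes. The line carries Tg(elavl3:Gal4-VP16)nns6, in which the *elavl3* (HuC) promoter expresses the yeast transcription factor Gal4 fused to VP16 throughout the nervous system. A red fluorescent lens marker is named in its label. The Results of the paper describe such a marker, gcry1:mRFP, on the UAS construct for active Fyn kinase. No UAS target was present in these larvae, so they served the study as the control of the line in which Gal4 switches on active Fyn kinase. Wild-type (WT) larvae of the WIK strain, without any transgene, were sequenced at the same ages, 4 replicates each, and gave the second age series used here. All larvae were raised in E3 medium, and each replicate was RNA of a pool of 10 whole larvae, so that every organ contributed. In such bulk samples, fewer cells of a type and less RNA per cell cannot be told apart.

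Between these ages a zebrafish larva turns from an embryo living on its yolk, just out of the chorion, into a free-swimming animal that hunts. The exocrine pancreas and the intestine become able to digest food, the liver takes over supply of plasma proteins from the yolk syncytial layer, and neurons of brain and retina form synapses while glia begin to wrap axons with myelin. Cell division slows in most tissues, and transient structures such as the hatching gland and the notochord sheath wind down their gene expression.

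Total counts per library lay between 11386432 and 30548984, and between 22401 and 24369 genes had at least 1 count. Of 49 marker genes for neurons, muscle, liver, pancreas, intestine, retina, blood, immune cells, hatching gland, skin, cartilage and myelin, 42 had a count in all 8 libraries and 0 were without a count in every library. One library stood apart. On log2 CPM (counts scaled to 1e6 per library) over 19882 genes, 5 dpf replicate 3 had a median Pearson r of 0.853 with the other libraries of its group, whereas the remaining 7 libraries had medians between 0.987 and 0.99. These are correlations across genes, which are not independent replicates. Replicate 3 also had the fewest genes with a count, 22401, at a total of 13985897 counts. Of 15131 well-measured genes, in 1999 it fell short of the average of replicates 1, 2 and 4 by over 2 log2 units and in 136 it exceeded that average by as much, while any other library did so in at most 7 genes in either direction. Every comparison was therefore run with all 8 libraries and again without 5 dpf replicate 3. Levels are given in CPM, scaled with TMM factors across the 16 WT and *elavl3:Gal4* libraries, and values follow the order of replicates 1 to 4.

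With all 8 libraries, the quasi-likelihood test of edgeR, adjusted after Benjamini and Hochberg, called 5029 of 19534 genes at an adjusted p under 0.05. Of these, 3000 were higher at 5 dpf (15.4% of the genes tested) and 2029 were lower (10.4%). Without replicate 3, 11616 of 19710 genes were called, 5836 higher (29.6%) and 5780 lower (29.3%). Nearly all calls of the larger set of libraries were found again in the smaller one. In numbers, 5021 genes were called in both runs, 99.8% of the first list and 43.2% of the second, and all 5021 had the same direction. Both runs share every library except replicate 3, so this overlap is only a description. Among the 11489 genes called without replicate 3 that were also tested with it, 500 had a fold change of the opposite sign once it was included. A log2 fold change beyond 1 was reached by 2763 of the called genes with replicate 3 and by 3309 without it. With all 8 libraries the split depended on scaling. When libraries were scaled by their totals alone, the log2 fold changes of single genes moved by a median of −0.21, and 2059 genes were called higher and 2759 lower. Without replicate 3 that shift was −0.06, with 5180 higher and 6398 lower. The strand setting of the counting was not stated, so reads of genes that overlap on opposite strands cannot be told apart. Among the genes named below this touches *pla2g1b*, *mogat2*, *apoda.1* and *apoda.2*, *ccne2*, *hoxc1a*, *neurod6a*, *syn2b*, *fyna*, *mbpa*, *myrf*, *gnat2*, *cmn*, *paics*, *atic*, *hbbe2*, *he1.1*, *egr4*, *fosab*, *cry5*, *hlfa*, *psmd7*, *mt-nd6*, *cyp2r1* and *ATP5MD*. Below, fold changes are those without replicate 3 unless the text says that all 8 libraries were used, and where single libraries are given at 5 dpf the level of replicate 3 is among them. Each was tested with edgeR as above. Counts of list members stand beside the shares of all genes given above, 29.6% higher and 29.3% lower without replicate 3. With all 8 libraries these shares were 15.4% and 10.4%. Of the 138 genes with values in the text, the age change of 99 was called in both runs and that of 36 was called only without replicate 3. These 36 were *apoa1a*, *apoda.1*, *apom*, *ccnb1*, *cox7b*, *csf1ra*, *cycsb*, *cyldb*, *elavl3*, *fkbp5*, *fyna*, *fynb*, *gins4*, *hbae3*, *hbbe2*, *hmgb2b*, *hspe1*, *icn2*, *idi1*, *klf9*, *mag*, *mt-nd3*, *myrf*, *nav1b*, *npsn*, *pomp*, *psmc3*, *ptgdsb.1*, *ptprsa*, *rab3ab*, *rpl29*, *rpl36*, *sncga*, *tnni2a.4*, *xbp1* and *znf319b*.

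**Figure D1:**
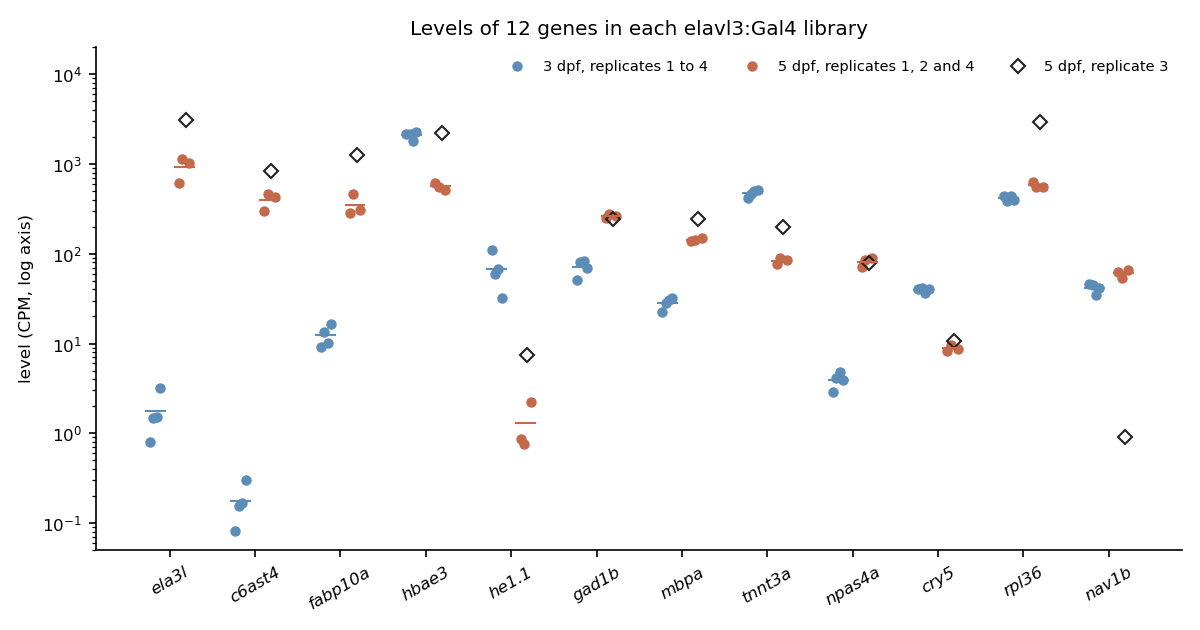
Levels of 12 genes in the elavl3:Gal4 libraries, in CPM on a log axis. Blue points are the 4 libraries at 3 dpf, orange points replicates 1, 2 and 4 at 5 dpf with short lines at the means, and open diamonds 5 dpf replicate 3. The diamond sits with the orange points for *gad1b*, *npas4a* and *cry5*, above them at 2936 CPM for *rpl36*, at the 3 dpf level for *hbae3* (2198 CPM) and below all other points of the gene for *nav1b* (0.911 CPM).

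Enzymes of the exocrine pancreas, which secretes digestive proteases, lipases and amylase into the gut, rose steeply with age. Of 21 tested genes of the exocrine pancreas list, 18 rose and 0 fell, with or without replicate 3, at a median log2 fold change of 5.33 without it and 5.98 with it (0.00 and 0.02 for all genes tested, of which 29.6% and 15.4% rose). The 3 not called were *ptf1a*, *bhlha15* and *rbpjl*, which encode transcription factors of acinar cells rather than enzymes. The pancreatic elastase gene *ela3l* (ENSDARG00000007276, chromosome 5 from 26111596 to 26118855 in GRCz11) stood at 0.811, 1.48, 1.505 and 3.24 CPM at 3 dpf, then 612, 1123, 3095 and 1012 CPM at 5 dpf. All 5 dpf libraries lay far above all 3 dpf libraries, and replicate 3 was the highest. Its log2 fold change was 9.06 (SE 0.30, adjusted p = 7.2e-10), from a mean of 1.76 ± 1.04 CPM (SD, n = 4) to 916 ± 269 CPM (SD, n = 3).

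Other digestive enzymes rose on the same scale. *amy2a*, the pancreatic amylase that cleaves starch (ENSDARG00000013856, chromosome 2 from 15612755 to 15626972), went from 0.811, 0.785, 1.25 and 1.66 CPM to 249, 537, 857 and 494 CPM, a log2 fold change of 8.67 (SE 0.32, adjusted p = 2.1e-09). For the elastase gene *ela2*, the values were 0.811, 0.723, 0.585 and 0.677 CPM and then 160.1, 284, 362 and 272 CPM, a log2 fold change of 8.40 (SE 0.25). In both genes the ages were separated in every library, which outside replicate 3 their choice required. In both, 5 dpf replicate 1 was the lowest of its group. The trypsin-family gene *prss59.1* rose by 7.73 (SE 0.24) to a mean of 1499 ± 433 CPM (SD, n = 3), with 4592 CPM in replicate 3. *pla2g1b*, a secreted phospholipase that digests lipids, rose by 7.40 (SE 0.28), and *sycn.2*, a homologue of the zymogen granule protein syncollin, by 7.16 (SE 0.20). Several of these genes have near-identical copies among which reads can be divided, so the level of a single copy of the elastase and trypsin families is uncertain. The gene annotated as *CELA1 (1 of many)*, 1 such elastase copy, had 0, 0.0314, 0 and 0.0753 CPM at 3 dpf and 9.63, 12.4, 42.0 and 12.3 CPM at 5 dpf (log2 fold change 8.32, SE 0.34). Genes of the exocrine pancreas list together took between 0.0145% and 0.0209% of all counts at 3 dpf, and 0.687%, 1.15%, 1.64% and 1.08% in the 4 libraries at 5 dpf.

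Genes of the absorptive lining of the intestine rose in the same interval. Of 43 tested genes of the enterocyte list, 36 rose and 5 fell (median 2.98), against 32 and 0 with all 8 libraries (median 3.09). The largest rise of any gene named here was that of *c6ast4* (ENSDARG00000052578, chromosome 7 from 38635538 to 38638809), an astacin-family metalloprotease gene. Its counts were 1, 5, 2 and 4 in the 3 dpf libraries and 4449, 11043, 7307 and 5529 in the 5 dpf libraries. In CPM these were 0.0811, 0.157, 0.167 and 0.301 against 299, 466, 832 and 426, a log2 fold change of 11.12 (SE 0.24, adjusted p = 3.3e-11), and its size rests on the few counts at 3 dpf. *chia.2*, which encodes an acidic chitinase, rose from 2.51, 3.96, 3.93 and 1.204 CPM to 1026, 1364, 1434 and 1190.2 CPM (log2 fold change 8.61, SE 0.23), and here replicate 3 lay close to the other 5 dpf libraries. The lactase gene *lct*, a brush-border disaccharidase, had 4, 8, 1 and 6 counts at 3 dpf and 977, 1501, 505 and 943 counts at 5 dpf, a log2 fold change of 7.91 (SE 0.17). *ctsbb*, a cathepsin B gene, went from 3, 7, 3 and 0 counts to 541, 1370, 478 and 452 counts (log2 fold change 7.81, SE 0.32).

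Transport and structural genes of the enterocyte rose as well. *slc15a1b*, the intestinal peptide transporter, stood at 2.27, 3.49, 4.18 and 2.41 CPM and then at 221, 258, 198 and 248 CPM (log2 fold change 6.27, SE 0.14, adjusted p = 3.3e-11). *vil1* encodes villin, the actin bundler of microvilli, and already stood at 40.05, 51.6, 57.4 and 44.5 CPM at 3 dpf. By 5 dpf it had reached 389, 399, 443 and 399 CPM, a log2 fold change of 3.04 (SE 0.10). *mogat2*, which rebuilds triglyceride from absorbed lipid, rose by 3.62 (SE 0.08), and the intestinal fatty-acid binding protein gene *fabp2* by 4.05 (SE 0.26).

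More liver plasma protein genes fell than rose in both runs, and more lipoprotein genes did so only without replicate 3. Of 48 tested liver plasma protein genes, 26 fell and 8 rose (median −0.64), and with all 8 libraries 20 fell and 7 rose (median −0.37). The list's share of all counts fell from between 1.84% and 2.37% at 3 dpf to between 1.02% and 1.21% at 5 dpf. Among the falling genes was *tfa*, which encodes the iron carrier transferrin. It had 2284, 2006, 2189.6 and 2492 CPM at 3 dpf and 766, 1096, 1572 and 958 CPM at 5 dpf, a log2 fold change of −1.25 (SE 0.12). The list was not uniform, since *fabp10a*, the liver-type fatty-acid binding protein used as a hepatocyte marker, rose from 9.16, 13.3, 10.199 and 16.5 CPM to 287, 465, 1243 and 307 CPM (log2 fold change 4.84, SE 0.21). *ttr*, the thyroid hormone carrier transthyretin, likewise rose by 5.02 (SE 0.19) to 31.1, 46.6, 92.9 and 40.2 CPM. *cfh*, which encodes the complement regulator factor H, was at 37.2, 12.8, 8.69 and 18.7 CPM and fell to 0.269, 0.464, 0.456 and 0.386 CPM, the latter from between 4 and 11 counts per library (log2 fold change −5.59, SE 0.62, adjusted p = 1.2e-05). Its 3 dpf libraries spread widely, but none came near the 5 dpf libraries.

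The apolipoprotein B genes, whose products package lipid into particles, were among the genes that fell. *apoba* (ENSDARG00000042780, chromosome 17 from 30704068 to 30727966) dropped from 1731, 1441, 1158 and 1556 CPM to 124, 104, 80.6 and 129 CPM, a log2 fold change of −3.62 (SE 0.14, adjusted p = 3.2e-09). *apobb.2* was at 155, 122, 90.5 and 124 CPM and then at 4.38, 3.17, 3.42 and 4.01 CPM, a 32.4-fold fall by edgeR without replicate 3. Replicate 3 lay within or beside its group in both genes. Of 26 tested genes of the lipoprotein list, 15 fell and 9 rose (median −0.51), beside 29.3% and 29.6% of all genes tested. With all 8 libraries 4 were called lower and 6 higher (median −0.21), beside 10.4% and 15.4%. *apoa1a*, the main protein of high-density particles, was a gene whose call turned on 1 library. It stood at 981, 991, 781 and 1021 CPM at 3 dpf and at 236, 269 and 270.0 CPM in 5 dpf replicates 1, 2 and 4, but at 908 CPM in replicate 3. Without that library its log2 fold change was −1.86 (SE 0.10, adjusted p = 5.4e-08), and with it −1.15 (SE 0.44, adjusted p = 0.0912). *apoda.2* and *apoda.1* encode apolipoprotein D copies and overlap on opposite strands of chromosome 2. They moved apart, *apoda.2* rising by 3.41 (SE 0.14) and *apoda.1* falling by 1.18 on the log2 scale (SE 0.09). Replicate 3 had 53.2 CPM of *apoda.1*, above all 3 dpf libraries, and with it the log2 fold change was −0.47 (SE 0.44, adjusted p = 0.476).

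Enzymes of cholesterol synthesis rose for the most part. Of 25 tested genes, 15 rose and 5 fell (median 0.70), and with all 8 libraries 10 rose and 1 fell (median 0.77). *hmgcra*, the HMG-CoA reductase at the rate-limiting step, was at 5.43, 6.94, 6.10 and 5.27 CPM and then at 25.0, 29.3, 39.6 and 23.99 CPM (log2 fold change 2.12, SE 0.12). The later enzymes *msmo1* and *cyp51* rose by 2.45 (SE 0.17) and 2.01 (SE 0.09). An exception was *idi1*, an isomerase of the same pathway, which fell from 89.4, 84.8, 83.9 and 83.2 CPM to 48.9, 39.4 and 39.7 CPM, with 85.8 CPM in replicate 3 (log2 fold change −0.99, SE 0.08). *ldlra*, the receptor that takes up low-density lipoprotein, rose by 1.76 (SE 0.08), and *fads2*, a desaturase of polyunsaturated fatty acids, by 3.46 (SE 0.11). Of 28 tested genes of pancreatic islets and glucose metabolism, 17 rose and 1 fell (median 0.43), against 8 and 0 of 29 with all 8 libraries. *pck1*, the gatekeeper of glucose synthesis, rose from 169, 150.3, 146 and 181 CPM to 669.7, 823, 926 and 762 CPM (log2 fold change 2.23, SE 0.10). *pdk2b*, a kinase that restrains pyruvate oxidation, rose by 2.27 (SE 0.13), and *igfbp1b*, a liver-made binding protein of insulin-like growth factors, by 1.91 (SE 0.21).

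**Figure D2:**
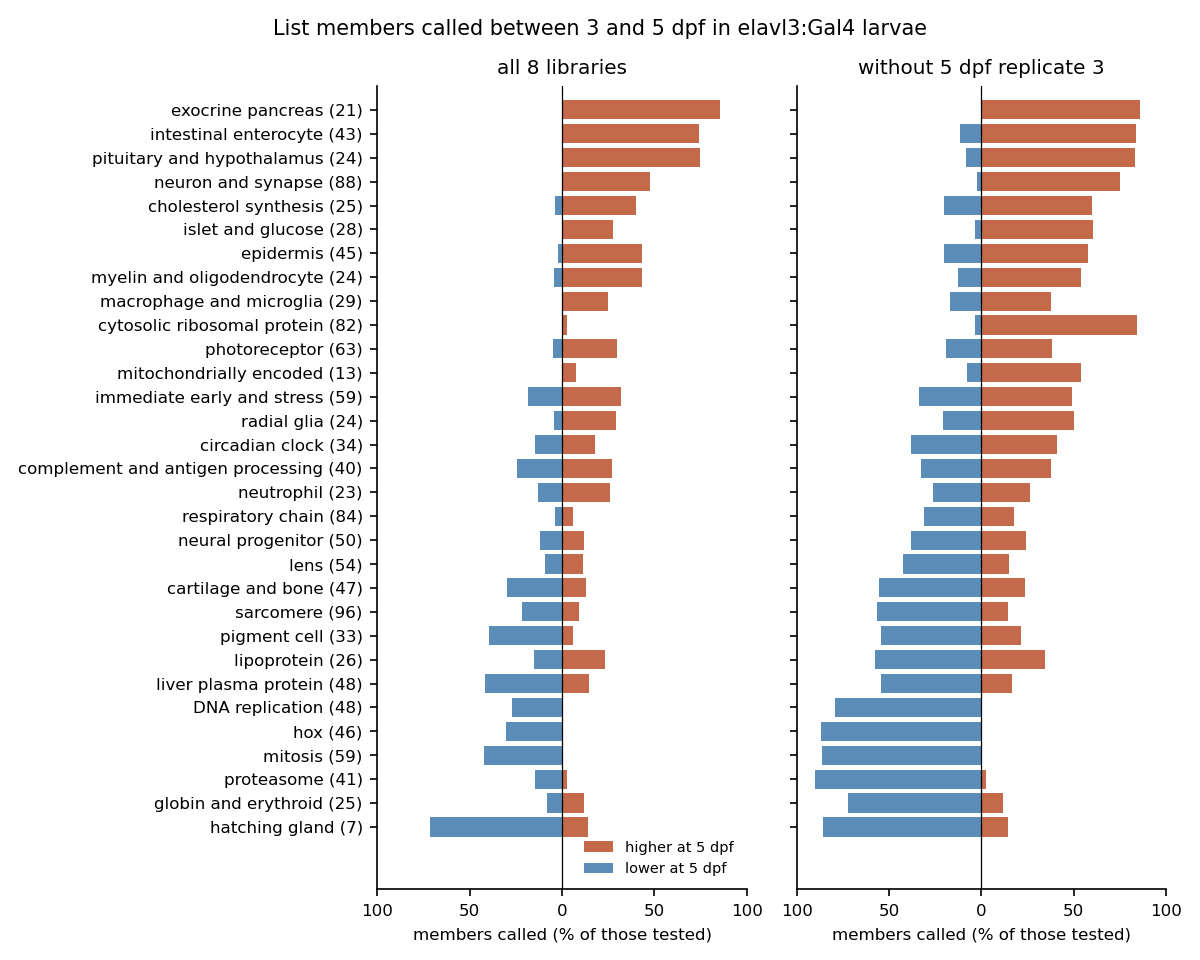
Members called higher (orange, to the right) or lower (blue, to the left) at 5 dpf, as a percentage of the tested members of each gene list, with all 8 libraries (left) and without 5 dpf replicate 3 (right). Numbers beside the names are members tested without replicate 3. Exocrine pancreas keeps 18 of 21 members higher in both panels, while proteasome goes from 6 to 37 members lower and cytosolic ribosomal protein from 2 to 69 members higher.

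Most genes of DNA replication and mitosis on the lists fell without replicate 3. In the DNA replication list, 38 of 48 tested genes fell and 0 rose (median −0.64), and in the mitosis list 51 of 59 fell and 0 rose (median −0.67). With all 8 libraries 13 and 25 members were called lower and 0 higher. *ccnb1*, the mitotic cyclin B, was at 73.0, 62.1, 65.4 and 61.2 CPM at 3 dpf. At 5 dpf it had 33.5, 32.18 and 27.8 CPM in replicates 1, 2 and 4, and 61.9 CPM in replicate 3, which lay within the 3 dpf range (log2 fold change −1.06, SE 0.09). *ccne2*, the cyclin E that opens S phase, fell by 1.1 on the log2 scale (SE 0.09), *ccna2*, the S and G2 phase cyclin A, by 0.96 (SE 0.08), and *mybl2b*, a transcription factor of the cell cycle, by 1.03 (SE 0.09). *gins4*, a subunit of the replicative helicase complex, was at 22.2, 20.2, 19.9 and 21.8 CPM and then at 9.69, 9.59, 28.2 and 9.10 CPM. Here replicate 3 exceeded every 3 dpf library, and the call was absent with it (log2 fold change −0.56, SE 0.38, adjusted p = 0.314) and present without it (−1.14, SE 0.09, adjusted p = 1.0e-06). *hmgb2b*, a chromatin protein of proliferating cells, showed the same on a larger scale, with 566, 499, 532 and 514 CPM at 3 dpf, 359, 348 and 343 CPM in the other 5 dpf libraries and 1197 CPM in replicate 3.

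The *hox* genes, which set position along the body axis, fell as a family. Of 46 tested, 40 fell and 0 rose (median −0.64), and 14 were called lower with all 8 libraries. *hoxc1a* stood at 27.8, 23.2, 28.1 and 25.5 CPM and then at 8.89, 9.46, 6.49 and 10.9 CPM, with no overlap between the ages (log2 fold change −1.41, SE 0.11). *hoxb9a* fell by 1.11 on the log2 scale (SE 0.08). Transcription factors and Notch genes of neural progenitors were mixed, with 12 higher and 19 lower of 50 (median −0.16), beside 29.6% and 29.3% of all genes tested, against 6 and 6 with all 8 libraries. *jag1a*, a Notch ligand, fell from a mean of 17.6 ± 1.51 CPM (SD, n = 4) to 10.19 ± 1.11 CPM (SD, n = 3). *neurod6a*, a factor of differentiating neurons, rose from 16.1, 14.7, 17.3 and 15.4 CPM to 26.3, 25.0, 26.3 and 29.5 CPM (log2 fold change 0.77, SE 0.09).

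Neuronal genes rose as a group. Of 88 tested genes of the neuron and synapse list, 66 rose and 2 fell (median 0.70), and with all 8 libraries 42 rose and 0 fell at the same median. *gad1b*, which makes the inhibitory transmitter GABA, had 50.7, 81.7, 83.2 and 69.8 CPM and then 247, 279, 246 and 264 CPM (log2 fold change 1.89, SE 0.14, adjusted p = 4.2e-07). Replicate 3 was indistinguishable from its group for this gene. *ddc*, the decarboxylase that completes dopamine and serotonin synthesis, rose from 1.70, 3.36, 4.18 and 4.67 CPM to 29.8, 27.07, 15.3 and 31.5 CPM (log2 fold change 3.09, SE 0.20), and replicate 3 was the lowest of its group. *syn2b*, a synapsin that tethers synaptic vesicles, rose by 1.68 (SE 0.09), and *nrgna*, a calmodulin-binding postsynaptic protein, by 1.72 (SE 0.17). In the opposite direction, the synuclein gene *sncga* fell from 18.97, 20.2, 21.3 and 19.3 CPM to 4.71, 9.29 and 5.94 CPM, with 21.9 CPM in replicate 3 (log2 fold change −1.54, SE 0.18).

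The share of all counts in the neuron and synapse list was between 0.67% and 0.824% at 3 dpf. At 5 dpf it was 1.15%, 1.18% and 1.31% in replicates 1, 2 and 4, and 0.684% in replicate 3. In that library 18 of 82 compared members were over 2 log2 units lower than the average of the others, at a median of −0.52 for the list. *rab3ab*, a synaptic vesicle GTPase, was at 14.6, 15.8, 15.97 and 17.3 CPM at 3 dpf and at 24.03, 24.9 and 25.1 CPM in 5 dpf replicates 1, 2 and 4, but at 1.14 CPM in replicate 3. Its log2 fold change was 0.64 (SE 0.08, adjusted p = 4.5e-05) without that library and 0.26 (SE 0.66, adjusted p = 0.806) with it. *elavl3* itself, the RNA-binding protein gene whose promoter drives Gal4, had 369, 397, 377 and 345 CPM and then 406, 469.7 and 512 CPM, with 74.4 CPM in replicate 3. It rose by 0.32 (SE 0.08, adjusted p = 0.00606) without replicate 3, while all 8 libraries gave −0.01 (SE 0.47, adjusted p = 0.992). The Fyn kinase genes moved little. *fyna*, from which the study's transgene was made, rose by 0.30 (SE 0.07, adjusted p = 0.00344), from 68.0, 74.6, 81.4 and 69.8 CPM to 88.6, 90.5, 80.8 and 89.9 CPM. *fynb* fell by 0.51 on the log2 scale (SE 0.10), from 29.996, 25.5, 23.1 and 28.3 CPM to 19.1, 18.2 and 18.5 CPM, with 2.05 CPM in replicate 3.

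Glial genes rose more often than they fell. Of 24 radial glia genes, 12 rose and 5 fell, beside 29.6% and 29.3% of all genes tested. The list's median was 0.16, and 0.10 when scaled by library totals. With all 8 libraries 7 rose and 1 fell. *slc1a2b*, a glutamate transporter of astroglia, was at 457, 493, 415 and 419 CPM and then at 868, 890.3, 537 and 993 CPM (log2 fold change 1.05, SE 0.08). Its relative *slc1a3a* rose by 0.84 (SE 0.08), and the prostaglandin D synthase gene *ptgdsb.1* fell by 1.01 on the log2 scale (SE 0.07) without replicate 3. In that library *ptgdsb.1* had 218 CPM, above all 3 dpf libraries, and the 8 libraries gave −0.59 (SE 0.29, adjusted p = 0.181). In the myelin and oligodendrocyte list 13 of 24 rose and 3 fell (median 0.37), and 10 of 23 rose and 1 fell with all 8 libraries. *mbpa*, the myelin basic protein gene, went from 22.2, 28.5, 30.8 and 31.9 CPM to 139, 144, 243 and 148 CPM (log2 fold change 2.35, SE 0.10, adjusted p = 6.4e-09). *plp1b*, a proteolipid of the myelin membrane, rose by 2.36 (SE 0.16). *mag*, an adhesion protein of the myelin sheath, had 46.3, 45.4 and 46.1 CPM in 5 dpf replicates 1, 2 and 4 and 4.44 CPM in replicate 3, and rose from 22.7, 28.4, 19.2 and 26.6 CPM by 0.92 (SE 0.11). *myrf*, the transcription factor that switches on myelin genes, fell from 29.4, 25.1, 22.4 and 26.0 CPM to 14.1, 12.6 and 16.3 CPM, with 0.342 CPM in replicate 3 (log2 fold change −0.84, SE 0.11).

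In the eye, 24 of 63 photoreceptor genes rose and 12 fell (median 0.33), beside 29.6% and 29.3% of all genes tested, and with all 8 libraries 19 of 64 rose and 3 fell. *gnat2*, the transducin of cones, stood at 50.7, 154, 165 and 106 CPM and then at 619, 381, 842 and 372 CPM (log2 fold change 1.94, SE 0.31). Replicate 1 was the lowest at 3 dpf and, beside replicate 3, the highest at 5 dpf. *rbp3*, the retinoid carrier between photoreceptors and pigment epithelium, had 14.1, 35.3, 38.8 and 28.6 CPM and then 165, 87.4, 128 and 81.5 CPM. There too replicate 1 was the lowest at 3 dpf, and at 5 dpf it was the highest, above replicate 3 as well. The list's share of all counts was 0.192% in 3 dpf replicate 1 and between 0.289% and 0.408% in the others, and 0.749% in 5 dpf replicate 1 and between 0.447% and 0.587% in the others. The green-cone opsin gene *opn1mw1* rose by 1.51 (SE 0.30), and *tulp1a*, a tubby-like protein of photoreceptors, fell by 2.301 on the log2 scale (SE 0.19). Lens genes turned with the choice of libraries, at a median of 0.35 with all 8 libraries (6 higher and 5 lower of 54) and of −0.25 without replicate 3 (8 higher and 23 lower). In the 8 libraries, scaling by totals alone also turned that median, to −0.01. *crybgx*, a crystallin gene, rose by 2.19 (SE 0.17), and *hsf4*, a heat-shock factor of the lens, fell by 1.21 on the log2 scale (SE 0.12).

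Hormone and neuropeptide genes of the pituitary and hypothalamus rose, 20 of 24 against 2 that fell (median 0.94), and 18 against 0 with all 8 libraries (median 1.44). *gh1*, growth hormone, was at 3.16, 2.89, 3.01 and 4.59 CPM and then at 23.4, 23.6, 59.7 and 13.5 CPM (log2 fold change 2.60, SE 0.22). *vip*, vasoactive intestinal peptide, rose by 1.53 (SE 0.17), and the enkephalin precursor *penka* by 1.23 (SE 0.19).

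Muscle genes fell in number, with a few that rose steeply. Of 96 tested sarcomere genes, 54 fell and 14 rose (median −0.37), but with all 8 libraries 21 fell and 9 rose (median −0.06). *tnnt3a*, a fast skeletal troponin T, fell from 414, 465, 502 and 506 CPM to 76.2, 89.9, 199 and 85.0 CPM (log2 fold change −2.48, SE 0.09, adjusted p = 2.3e-09). The cardiac-type troponin *tnnt2c* fell by 2.07 on the log2 scale (SE 0.09) and *nppa*, the atrial natriuretic peptide of the heart, by 2.03 (SE 0.14). *atp2a1l*, a calcium pump of the sarcoplasmic reticulum, rose instead, from 281, 372, 315 and 358 CPM to 1232, 1506, 1558 and 1292 CPM (log2 fold change 2.03, SE 0.10). *tnni2a.4*, a fast troponin I, had 1843, 1921, 2155 and 1927 CPM at 3 dpf, 1149, 1229.7 and 1113 CPM in 5 dpf replicates 1, 2 and 4 and 4740.4 CPM in replicate 3. Its log2 fold change was −0.74 (SE 0.08, adjusted p = 6.3e-06) without and 0.09 (SE 0.49, adjusted p = 0.913) with that library.

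In the skeleton, 26 of 47 cartilage and bone genes fell and 11 rose (median −0.35), and 14 fell and 6 rose with all 8 libraries. *matn3a*, matrilin 3 of the cartilage matrix (ENSDARG00000069245, chromosome 20 from 43760059 to 43775544), fell from 136, 152, 179.7 and 173 CPM to 6.87, 14.7, 22.6 and 8.95 CPM (log2 fold change −3.92, SE 0.21, adjusted p = 3.5e-08). *col9a1b*, a collagen IX chain, fell by 3.02 on the log2 scale (SE 0.13), and *hapln1a*, the link protein of hyaluronan and proteoglycan, by 1.75 (SE 0.07). *spp1*, osteopontin of bone matrix, rose from 2.84, 3.205, 3.01 and 2.48 CPM to 15.8, 21.5, 35.1 and 16.9 CPM (log2 fold change 2.64, SE 0.15). Outside the list, *emilin3a*, an extracellular matrix gene, fell from 26.3, 25.8, 20.8 and 18.97 CPM to 0.74, 0.549, 0.228 and 0.386 CPM, with between 2 and 13 counts per library at 5 dpf (log2 fold change −5.33, SE 0.22). *cmn*, calymmin of the notochord sheath, fell by 3.45 on the log2 scale (SE 0.17). *tbxta*, the notochord factor Brachyury, fell by 3.60 (SE 0.29), from 14.3, 12.3, 16.4 and 18.3 CPM to 0.74, 1.94, 3.53 and 0.694 CPM.

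Skin genes rose on balance, with 26 of 45 higher and 9 lower (median 0.39), and 19 of 44 higher and 1 lower with all 8 libraries (median 0.63). The keratin gene *krt97* was at 198, 176, 183 and 186 CPM and then at 899, 989, 1994 and 819 CPM (log2 fold change 2.29, SE 0.08, adjusted p = 1.0e-09). The keratins *krt1-19d* and *krt92* rose by 2.202 (SE 0.11) and 2.03 (SE 0.08). Other members of the list went the other way. The log2 fold change of *icn2* was −0.32 (SE 0.09) without replicate 3, and those of *krt4* and *cyt1l* were negative as well. Pigment cell genes fell, 18 of 33 against 7 that rose (median −0.46), and 13 fell and 2 rose with all 8 libraries. *paics* and *atic*, enzymes of purine synthesis, whose products iridophores store as guanine crystals, fell by 2.45 (SE 0.09) and 2.16 (SE 0.11) on the log2 scale. In *paics* the levels were 738, 601, 653 and 634 CPM and then 131, 113, 199 and 115 CPM. *pnp4a*, a purine nucleoside phosphorylase that marks iridophores, fell by 2.15 (SE 0.11), and *slc2a15a*, a sugar transporter gene of the xanthophore lineage, by 2.56 (SE 0.19). *mthfd1l*, a mitochondrial enzyme of folate metabolism that feeds purine synthesis, fell by 3.52 (SE 0.18), from 199, 162, 156 and 182 CPM to 18.4, 10.1, 9.11 and 17.97 CPM. Among detoxifying enzymes, the cytochrome P450 gene *cyp2aa3* fell by 3.29 (SE 0.17).

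Embryonic blood and the hatching gland receded. Of 25 globin and erythroid genes, 18 fell and 3 rose (median −0.73). With all 8 libraries 2 were called lower and 3 higher (median −0.56), beside 10.4% and 15.4% of all genes tested. *hbae3*, an embryonic alpha globin, was at 2129, 2146, 1814 and 2238 CPM at 3 dpf and at 609, 557 and 517 CPM in 5 dpf replicates 1, 2 and 4, and at 2198 CPM in replicate 3, within the 3 dpf range. The log2 fold change was −1.88 (SE 0.09, adjusted p = 2.1e-08) without replicate 3 and −1.08 (SE 0.48, adjusted p = 0.136) with it. *hbbe2*, an embryonic beta globin, fell by 1.19 (SE 0.16) without replicate 3, in which it stood at 81.2 CPM, above every 3 dpf library. Globin genes are near-identical copies, so the division of reads among them is uncertain. The hatching enzyme gene *he1.1*, which dissolves the chorion, had 109, 59.9, 67.6 and 32.4 CPM and then 0.875, 0.76, 7.40 and 2.24 CPM (log2 fold change −5.81, SE 0.48, adjusted p = 1.4e-06). In the hatching gland list 6 of 7 tested genes fell and 1 rose, and 5 fell and 1 rose with all 8 libraries. *xbp1*, a secretory-pathway factor on that list, was at 365, 348, 367 and 357 CPM and then at 248, 233 and 237 CPM, with 675 CPM in replicate 3. *agr1*, a secreted disulfide isomerase homologue on both the hatching gland and the epidermis lists, fell by 0.82 on the log2 scale (SE 0.08). In WT larvae its mean log2 level moved by −0.01.

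Immune genes did not move as 1 group. In the macrophage and microglia list, 11 of 29 rose and 5 fell (median 0.35), beside 29.6% and 29.3% of all genes tested, against 7 and 0 of 28 with all 8 libraries. *mpeg1.2*, a perforin-like gene of macrophages, rose from 6.49, 8.23, 4.35 and 5.87 CPM to 33.1, 30.2, 32.8 and 35.6 CPM (log2 fold change 2.35, SE 0.16). Its copy *mpeg1.1*, which had few counts, was called lower without replicate 3, as were *ctss2.1* and *apoeb* of the same list. The list's share of all counts was between 0.142% and 0.168% at 3 dpf, and 0.106%, 0.115%, 0.137% and 0.115% at 5 dpf. *csf1ra*, the receptor for the macrophage growth factor, also used by pigment cells, fell by 0.74 (SE 0.10) without replicate 3, in which it stood at 2.28 CPM against 21.5, 19.4 and 20.1 CPM in the others. Of 23 neutrophil genes, 6 rose and 6 fell without replicate 3 (median 0.05, turned to −0.01 when scaled by library totals), and 6 rose and 3 fell with it (median 0.27). The member with the largest rise, *cpa5*, is also on the exocrine pancreas list. *mmp9*, a gelatinase of neutrophils and inflamed tissue, fell from 40.3, 38.9, 32.7 and 36.2 CPM to 7.0005, 8.19, 8.999 and 10.8 CPM, and *npsn*, a neutrophil astacin protease, fell by 0.67 on the log2 scale (SE 0.11) without replicate 3, in which it stood at 32.9 CPM (adjusted p = 0.167 with all 8 libraries). In the complement and antigen processing list, 15 of 40 rose and 13 fell without replicate 3, and 11 of 41 rose and 10 fell with it (medians 0.06 and −0.03, the first turned to −0.00 by scaling to library totals). The complement genes *c5* and *c3a.1*, made largely in the liver, fell by 1.89 (SE 0.13) and 1.65 (SE 0.13) on the log2 scale. *cfhl4*, a factor H-like gene, had a log2 fold change of −3.51 (SE 0.40).

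Genes of neuronal activity and stress changed in both directions, 29 of 59 higher and 20 lower (median 0.24), beside 29.6% and 29.3% of all genes tested. With all 8 libraries 19 were higher and 11 lower. The activity-dependent transcription factor *npas4a* rose from 2.92, 4.08, 4.85 and 3.91 CPM to 71.1, 84.1, 78.4 and 88.8 CPM (log2 fold change 4.37, SE 0.13, adjusted p = 2.6e-10), with replicate 3 inside its group. *egr1* and *egr4*, immediate early zinc-finger genes, rose by 3.06 (SE 0.14) and 2.98 (SE 0.09). *hspa8*, a constitutive chaperone of the Hsp70 family, rose from 28.9, 25.1, 24.3 and 25.4 CPM to 293, 245, 505 and 209.7 CPM, and *hspe1*, a mitochondrial co-chaperone, fell by 0.92 (SE 0.08) without replicate 3. That library had 132 CPM of *hspe1*, above all 3 dpf libraries, and with it the log2 fold change was −0.45 (SE 0.32, adjusted p = 0.34). Clock genes divided evenly, with 14 of 34 higher and 13 lower, beside 29.6% and 29.3% of all genes tested. Their median was 0.08, and −0.08 with all 8 libraries. *cry5*, a light-induced photolyase, fell from 40.9, 41.6, 36.4 and 40.2 CPM to 8.28, 9.54, 10.7 and 8.64 CPM (log2 fold change −2.16, SE 0.09). *dbpb* and *hlfa*, clock output factors of the PAR bZIP family, rose by 1.95 (SE 0.16) and 1.82 (SE 0.07), although *hlfa* stood at 39.1 CPM in replicate 3 against 142, 133 and 151 CPM in the others. The time of day of each collection was not given in the labels, and its part in these genes was not tested.

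Among housekeeping complexes the counts of calls moved strongly with replicate 3. Proteasome genes fell, 37 of 41 against 1 that rose (median −0.69), yet 6 fell and 1 rose with all 8 libraries (median −0.24). *psmc3*, an ATPase of the regulatory cap, was at 193, 187, 206 and 189 CPM and then at 91.7, 86.5 and 84.2 CPM, with 232 CPM in replicate 3. The log2 fold change was −1.14 (SE 0.07, adjusted p = 7.4e-08) without it and −0.63 (SE 0.33, adjusted p = 0.201) with it. *psmd7*, a subunit of the lid, lay within its group in replicate 3, at 31.4, 27.24, 29.6 and 28.5 CPM after 61.9, 57.8, 65.0 and 58.9 CPM, and was called in both runs. *pomp*, the proteasome assembly factor, had 39.5, 39.2 and 34.2 CPM at 5 dpf and 137 CPM in replicate 3, above 56.6, 52.2, 60.0 and 56.2 CPM at 3 dpf. Without replicate 3 it fell by 0.56 on the log2 scale (SE 0.08).

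Ribosomal protein genes of the cytosol rose slightly but nearly all together. Of 82 tested, 69 rose and 3 fell at a median of 0.33, and with all 8 libraries 2 rose and 0 fell at a median of 1.06. The larger median thus came with the fewer calls. *rpl36* had 443, 382, 443 and 398 CPM, then 636, 551 and 556 CPM, and 2936 CPM in replicate 3. *rpl29* rose by 0.43 (SE 0.08), with 1740.2 CPM in replicate 3 against 358, 375 and 333 CPM in the others. Nuclear-encoded genes of the respiratory chain were mixed, with 15 higher and 26 lower of 84 (median −0.05), beside 29.6% and 29.3% of all genes tested. With all 8 libraries 5 were higher and 3 lower (median 0.62). *ndufab1a*, a complex I acyl carrier, fell from 26.9, 23.97, 24.1 and 18.7 CPM to 4.31, 4.77, 10.4 and 3.63 CPM, and the cytochrome c gene *cycsb* fell by 1.27 (SE 0.07) without replicate 3. Replicate 3 had 455 CPM of *cycsb*, above all 3 dpf libraries, and with it the log2 fold change was −0.66 (SE 0.38, adjusted p = 0.239). *cox8b*, a subunit of cytochrome c oxidase, rose by 1.599 (SE 0.10), and *cox7b* by 0.21 (SE 0.08, adjusted p = 0.0323), a call lost when libraries were scaled by totals and with all 8 libraries (adjusted p = 0.147), where replicate 3 had 703 CPM. Of 13 genes encoded by the mitochondrion itself, 7 rose and 1 fell (median 0.31), against 1 and 0 with all 8 libraries (median 0.18, turned to −0.02 by scaling to totals). *mt-nd3* rose by 0.59 (SE 0.07) without replicate 3, in which it stood at 1566 CPM (adjusted p = 0.0608 with all 8 libraries), and *mt-nd6*, which lies opposite *mt-nd5*, by 0.65 (SE 0.11).

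**Figure D3:**
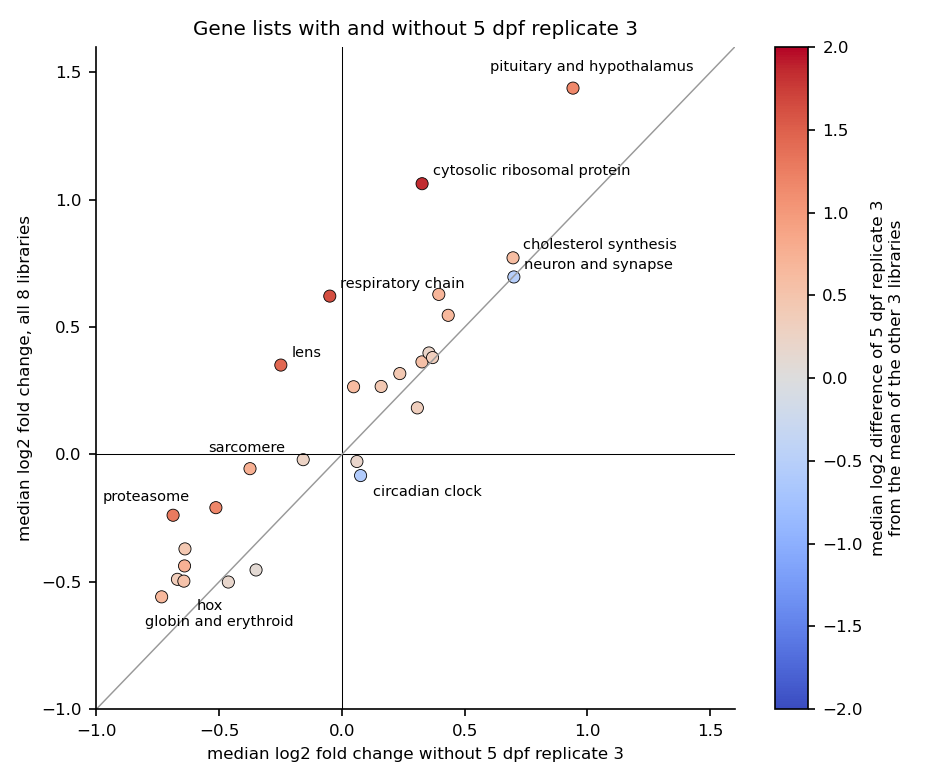
Median log2 fold change (5 over 3 dpf) of 28 gene lists, without 5 dpf replicate 3 (horizontal) and with all 8 libraries (vertical). The colour is the list's median log2 difference of replicate 3 from the mean of the other 5 dpf libraries, and the line marks equal values. Cytosolic ribosomal protein (0.33 against 1.06), respiratory chain (−0.05 against 0.62) and lens (−0.25 against 0.35) lie farthest above the line and in the deepest red. The exocrine pancreas, enterocyte and hatching gland lists lie outside the axes.

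Replicate 3 differed from its group in a way that moved with the length of the gene. Genes were split into 10 bins of equal size by the length given in the deposited table. In the shortest bin, up to 1185 bases, replicate 3 lay at a median of 1.21 log2 units above the mean of the other 3 libraries, and in the longest bin, from 6395 bases, at −0.71. The medians fell from each bin to the next. In the other 3 libraries, whose reference includes replicate 3, medians ran the other way, from between −0.42 and −0.31 to between 0.18 and 0.32. On top of this, the genes far below the group were spread over all lengths. Between 10.21% and 17.1% of the genes in every bin lay more than 2 log2 units below, and these 1999 genes had a median length of 2788 bases, beside 2661 for all genes compared and 798 for the 136 genes that far above. The median age change with all 8 libraries ran from 0.29 in the shortest bin to −0.11 in the longest, and without replicate 3 it stayed between −0.07 and 0.02. The part that gene length has in the results with all 8 libraries was not tested for single genes.

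**Figure D4:**
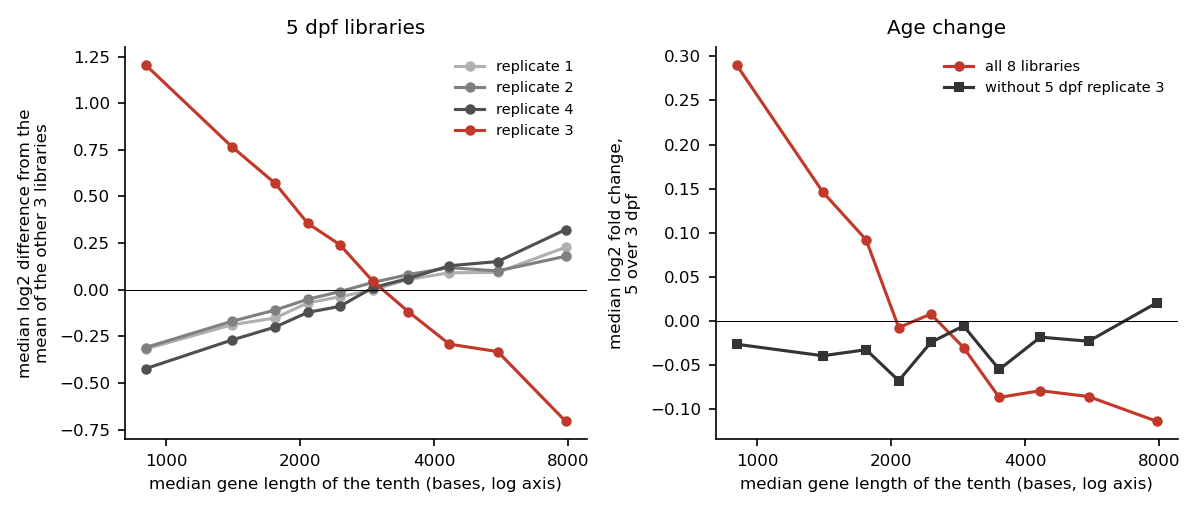
Left, median log2 difference of each 5 dpf library from the mean of the other 3, for 10 bins of gene length (log axis), with replicate 3 in red. Right, median log2 fold change of the age comparison in the same manner, with all 8 libraries (red) and without 5 dpf replicate 3 (black). Replicate 3 runs from 1.21 to −0.71, and the age change with all 8 libraries from 0.29 to −0.11.

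The gene lists differed in where replicate 3 lay. The cytosolic ribosomal protein list made up 18.3% of all counts in replicate 3, against 8.91%, 8.89% and 7.90% in the other 5 dpf libraries and between 6.72% and 7.39% at 3 dpf. Its median difference from the group was 1.85 log2 units. For the respiratory chain, lens and proteasome lists the medians were 1.63, 1.44 and 1.29. On the other side were circadian clock genes at −0.59, with 9 of 33 members more than 2 log2 units below, and neuron and synapse genes at −0.52. Of single genes, *rbp2a*, a retinol-binding protein gene, had 632 CPM in replicate 3 against 122, 124 and 128 in the others of its group. *ATP5MD*, a small ATP synthase subunit, had 307 CPM against 65.6, 64.3 and 58.2, and the ribosomal *RPL41* 425 CPM against 55.8, 77.9 and 77.5. The age change of *ATP5MD* and of *RPL41* was not called without replicate 3 (adjusted p = 0.517 and 0.792). Farthest below lay *nav1b*, a neuron navigator of axon growth, with 0.911 CPM against 62.9, 53.3 and 65.1, *ptprsa*, a receptor phosphatase of axons and synapses, with 2.16 CPM against 77.8, 69.0 and 90.6, and *znf319b*, a zinc-finger gene, with 1.14 CPM against 44.0, 39.7 and 45.4. limma's library weights, which fall as a library's spread about its group grows, were 0.0335 for replicate 3 and 1.36 to 2.05 for the rest. With those weights, limma called 11795 genes from all 8 libraries, of which 11161 were also called by edgeR without replicate 3. That edgeR run called 11616 of 19710 genes. Since so low a weight nearly removes replicate 3, both fits rest on almost the same libraries, and their overlap is only a description.

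The age change of *elavl3:Gal4* larvae was then set against that of WT larvae, which shares no library with it. Across 15351 genes the mean log2 changes of both genotypes had a Pearson r of 0.938 without replicate 3 and 0.877 with it, a description across genes that are not independent. The test of the difference itself, an interaction of genotype and age in edgeR, called 505 of 20352 genes without replicate 3, 215 with a higher change in *elavl3:Gal4* (1.06%) and 290 with a lower one (1.42%). With all 16 libraries it called 38 of 20177 genes (0.188%), 9 higher and 29 lower, and all 38 were called in the same direction without replicate 3. Here too the runs share every library except replicate 3, so the overlap is only a description. Both splits depended on scaling. By library totals alone, 606 genes were higher and 203 lower without replicate 3, and 11 higher and 17 lower with it. Of 504 called genes compared, 339 had mean changes of the same sign in both genotypes, 259 of them larger in *elavl3:Gal4* larvae, and 165 had opposite signs. These genes were picked because their age changes differed, and the same split over all genes was not taken. It is only a description of the called genes. Of the 11616 genes that changed with age, 427 were among the 505. Of the 32 genes with values below whose age changes differed without replicate 3, 9 were also called with all 16 libraries, namely *cmn*, *cyldb*, *cyp2r1*, *fads2*, *fkbp5*, *fosab*, *hmgcra*, *junba* and *vimr2*. The other 23 were not, and in *apoda.1* and *krt97* the sign of the difference turned. Differences and counts of lists below are those without replicate 3. Genotype and the parents or clutch of the pooled larvae cannot be told apart here, because the labels give no clutch.

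**Figure D5:**
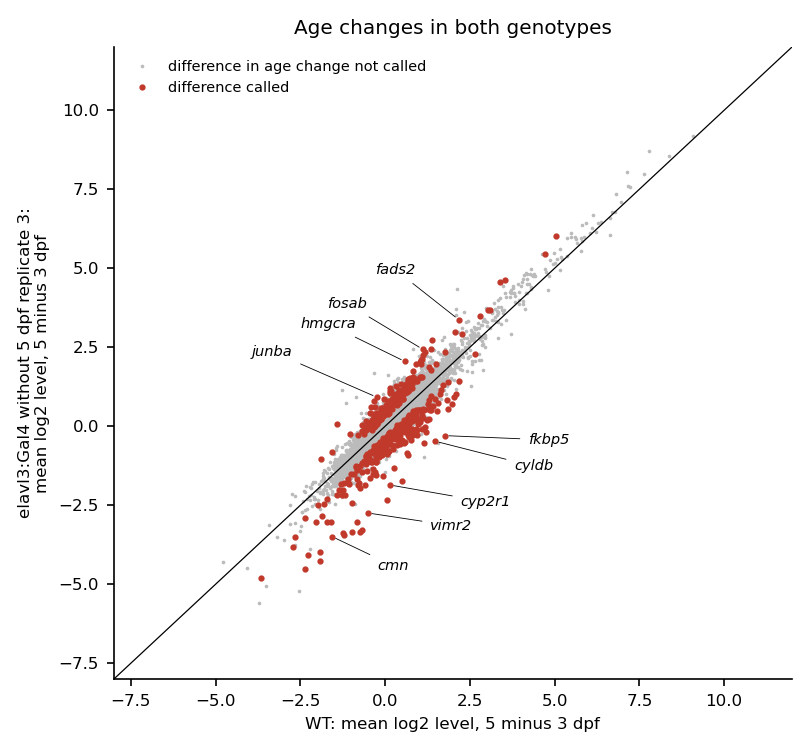
Mean log2 level at 5 dpf minus that at 3 dpf for 15351 genes, in WT larvae (horizontal) and in elavl3:Gal4 larvae without 5 dpf replicate 3 (vertical). Red points are genes whose age change differed between the genotypes by edgeR, and the line marks equal change. Most genes lie along the line (r = 0.938), and *fkbp5* and *cyldb* lie to the right of it, higher with age in WT only.

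A large difference lay in *fkbp5*, a co-chaperone of the glucocorticoid receptor that glucocorticoids induce. In WT larvae it went from 93.7, 102, 72.4 and 84.1 CPM to 313, 312, 265 and 304 CPM. In *elavl3:Gal4* larvae it was at 92.1, 110.4, 87.5 and 91.7 CPM at 3 dpf, then 77.1, 65.8, 69.6 and 91.1 CPM at 5 dpf, so that the genotypes overlapped at 3 dpf and were far apart at 5 dpf. The age changes differed by a log2 of −2.05 (SE 0.16, adjusted p = 2.5e-06). *klf9*, a transcription factor gene that glucocorticoids also induce, went from 26.7, 21.8, 21.3 and 21.5 CPM to 77.6, 93.4, 93.0 and 101.7 CPM in WT and from 15.3, 21.3, 20.4 and 27.5 CPM to 33.4, 30.95, 8.999 and 37.2 CPM in *elavl3:Gal4* larvae. Its difference was −1.32 (SE 0.19, adjusted p = 0.00054). It was chosen after its values were seen, as were *gad2*, *stxbp1b* and *cyt1* below and the members that are only listed by name. *cyldb*, a deubiquitinase gene, went in WT from 12.8, 12.6, 11.8 and 8.45 CPM to 34.7, 29.5, 31.3 and 33.3 CPM, while *elavl3:Gal4* larvae had 11.1, 13.0, 10.4 and 12.2 CPM and then 9.02, 9.04, 5.70 and 6.87 CPM (difference −1.98, SE 0.18).

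Stress and immediate early genes were called in both directions, 7 with a higher and 9 with a lower age change of 59, beside 1.06% and 1.42% of all genes tested. Lower were *fkbp5*, *klf9*, *tsc22d3*, *fosb*, *fosaa*, *nr4a1*, *nr4a3*, *cdkn1a* and *jund*. Higher were *fosab*, *junba*, *junbb*, *btg2*, *ier2a*, *egr4* and *hsp90aa1.2*. *fosab*, a zebrafish c-fos gene, stood at 16.8, 16.6, 15.9 and 18.1 CPM in *elavl3:Gal4* larvae at 3 dpf, then 109, 91.5, 131 and 81.1 CPM at 5 dpf, while WT went from 32.4, 22.5, 21.0 and 17.9 CPM to 43.8, 48.7, 61.3 and 48.0 CPM (difference 1.38, SE 0.21, adjusted p = 0.00102). Its partner *junba* rose from 15.0, 19.5, 20.9 and 17.99 CPM to 44.4, 32.7, 56.2 and 29.2 CPM and stood at 24.7, 21.4, 22.2 and 27.25 CPM and then at 19.9, 18.8, 23.3 and 18.4 CPM in WT (difference 1.202, SE 0.19).

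In the cholesterol list, 4 of 25 genes had a higher age change (*hmgcra*, *msmo1*, *cyp51* and *sc5d*) and 0 a lower one, at a median difference of 0.39 beside 0.00 for all genes. Of all genes tested, 1.06% had a higher and 1.42% a lower change. *hmgcra* went from 6.90, 6.34, 4.78 and 7.50 CPM to 10.99, 11.4, 8.70 and 8.12 CPM in WT, below the 23.99 to 39.6 CPM of the *elavl3:Gal4* libraries at 5 dpf (difference 1.504, SE 0.21, adjusted p = 0.000531). The desaturase gene *fads2* differed by 1.21 (SE 0.14), with 32.6, 28.9, 29.2 and 30.4 CPM in WT at 5 dpf against 60.2, 65.0, 92.0 and 57.2 CPM. The transthyretin gene *ttr* differed by 1.402 (SE 0.33). At 3 dpf it was lower in *elavl3:Gal4* larvae, at 1.70, 1.29, 0.836 and 0.978 CPM (10 to 41 counts per library). WT stood at 2.70, 3.38, 2.71 and 2.77 CPM. At 5 dpf the genotypes overlapped, with 31.1, 46.6, 92.9 and 40.2 CPM against 23.5, 41.0, 35.7 and 41.4 CPM in WT. Among apolipoproteins, 3 of 27 had a lower change and 0 a higher one, beside 1.42% and 1.06% of all genes tested. The 3 were *apoa1a* (difference −1.05, SE 0.13), *apobb.2* (−1.29, SE 0.31) and *apoda.1* (−0.51, SE 0.13). With all 16 libraries the differences were −0.36 for *apoa1a* (adjusted p = 0.806), −1.31 for *apobb.2* (adjusted p = 0.141) and 0.18 for *apoda.1* (adjusted p = 0.912).

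In the neuron and synapse list the median difference was 0.36. In *elavl3:Gal4* larvae 12 of 88 genes had a higher age change and 1 a lower one, beside 1.06% and 1.42% of all genes tested. The number depended on processing, with 30 higher when libraries were scaled by totals, 29 by DESeq2 and 7 without the filter on low counts. *gad2*, the second GABA-synthesizing enzyme gene, was lower at 3 dpf in *elavl3:Gal4* larvae, with 80.8, 112, 113 and 96.3 CPM against 155, 156, 166 and 141 CPM in WT. At 5 dpf the genotypes overlapped, with 251, 236, 192 and 267 CPM against 218, 219, 237 and 280 CPM (difference of the age changes 0.70, SE 0.14, adjusted p = 0.0116). *stxbp1b*, a gene of the synaptic vesicle fusion machinery, rose from 12.7, 15.9, 16.6 and 13.6 CPM to 27.7, 18.7, 36.0 and 21.6 CPM and in WT was at 34.1, 21.6, 23.2 and 23.02 CPM and then at 21.4, 13.1, 20.6 and 21.3 CPM (difference 1.04, SE 0.24). *sncga* was the lower one, by −1.49 (SE 0.25), since WT kept 16.7, 17.3, 19.6 and 11.6 CPM at 5 dpf. The *elavl3* gene itself was not called (difference 0.13, SE 0.10, adjusted p = 0.533).

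In the skin, 14 of 45 epidermis genes had a lower age change in *elavl3:Gal4* than in WT larvae and 0 a higher one. Of all genes tested, 1.42% were lower and 1.06% higher. The median difference of the list was −0.36. With library totals as the scale 9 were called lower. They include keratins and desmosome genes such as *krt4*, *cyt1*, *cyt1l*, *krt97*, *ppl*, *perp* and *dspa*. *cyt1*, a type I keratin of the periderm, was at 2204, 2131, 2072 and 2217 CPM and then at 2048, 2067, 3536 and 1980.4 CPM, an age change that was not called (adjusted p = 0.32). In WT it went from 2030.5, 2049, 2111 and 2088 CPM to 3046, 2953, 3127 and 3264 CPM, so that the difference of the changes was −0.66 (SE 0.07, adjusted p = 3.1e-05). The 5 dpf replicate 3 of *elavl3:Gal4* larvae lay above the WT libraries for this gene. *icn2*, an ictacalcin of the skin, had 122, 137, 579 and 112 CPM at 5 dpf against 235, 217, 203 and 199 CPM in WT (difference −1.02, SE 0.12). With all 16 libraries the difference of *icn2* was −0.10 (SE 0.55, adjusted p = 0.962). *agr1*, of mucus-secreting cells, differed by −0.81 (SE 0.10).

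Some notochord and cartilage genes had a lower age change in *elavl3:Gal4* than in WT larvae. *tbxta* was at 12.4, 9.30, 9.91 and 11.4 CPM and then at 3.61, 6.29, 7.62 and 4.21 CPM in WT, all higher at 5 dpf than every *elavl3:Gal4* library (difference −2.63, SE 0.38, adjusted p = 0.000786). *cmn* differed by −1.90 (SE 0.30), with 21.98, 39.6, 41.4 and 25.1 CPM in WT at 5 dpf against 9.42, 18.3, 12.1 and 13.4 CPM. At 3 dpf *elavl3:Gal4* larvae were the higher ones, with 143, 149, 170 and 154 CPM. WT then had 90.3, 71.8, 123 and 90.9 CPM. *vimr2*, a vimentin-related gene, fell from 28.3, 31.2, 30.7 and 34.8 CPM to 3.63, 4.98, 5.58 and 4.17 CPM, and in WT stood at 24.5, 20.7, 25.0 and 27.18 CPM and then at 15.3, 25.0, 14.6 and 14.5 CPM (difference −2.36, SE 0.24, adjusted p = 2.8e-05). Of 47 cartilage and bone genes, 4 had a lower change (*matn3a*, *col9a1b*, *col11a1a* and *postnb*) and 1 a higher one (*col10a1a*). In the sarcomere list 6 of 97 were lower and 1 higher. The counts of both lists stand beside 1.42% lower and 1.06% higher among all genes tested. Only 1 sarcomere gene was lower when libraries were scaled by totals. *cyp2r1*, a vitamin D hydroxylase gene, fell from 9.89, 7.57, 12.4 and 10.0 CPM to 3.43, 1.65, 3.08 and 2.24 CPM, while WT libraries stood between 5.90 and 11.9 CPM at both ages (difference −2.15, SE 0.32). *mpeg1.2* of macrophages rose farther (difference 1.12, SE 0.21), with 16.9, 19.9, 14.9 and 17.6 CPM in WT at 5 dpf. It was the only 1 of 29 macrophage and microglia genes called higher, with 0 lower, beside 1.06% and 1.42% of all genes tested. The list's median difference was −0.17.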

How the data were processed

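RNA-Seq was made from pools of 10 whole zebrafish larvae, 4 libraries for each of 6 groups, 24 in all. The deposited gene counts used here are unnormalized whole numbers that the authors made from paired-end reads. The submitters' processing notes name HISAT2 2.0.5, StringTie 1.3.3b and featureCounts 1.5.0-p3 and the build GRCz11, and the strand setting of the counting was not stated. Counts came from 3 deposited tables, and a gene absent from a table was set to 0 counts (1104 genes in the WT, 1008 in the *elavl3:Gal4* and 1076 in the third table). Gene lengths and positions, in bases, are those the authors deposited beside the counts. Another 48 columns of per-sample values in these tables and another 33 tables were not used, and the authors' own fold changes and p-values were neither used nor compared. Library totals ran from 11386432 to 30548984 counts, which limits what can be told of genes with a few counts. Intervals and tests do not cover what lies upstream of these counts.

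Groups were taken from the sample labels. The main test was edgeR 4.0.16 (R 4.3.3): filterByExpr, TMM factors, the quasi-likelihood test and Benjamini-Hochberg adjustment at 0.05, for the age difference in the *elavl3:Gal4* libraries and for its interaction with genotype over the 16 WT and *elavl3:Gal4* libraries, each with and without 5 dpf replicate 3. Levels are CPM of effective library size, and log2 levels used a pseudocount of 0.5. Nothing says how the larval pools of a group were drawn, so p-values measure the spread between these libraries. No 2 libraries were alike within sampling noise (lowest chi-square per degree of freedom 4.50 at 3 dpf and 7.52 at 5 dpf), and all were kept apart. The code was tested on simulated data. Alternatives were DESeq2 size factors, library totals, DESeq2 1.42.0, other filters on low counts, a log2 fold change over 1, a replicate block, limma 3.58.1 with library weights, all 6 groups in 1 fit, and leaving out each library. Tables and plots used Python 3.11.15, numpy 2.4.6, pandas 2.3.3, scipy 1.17.1 and matplotlib 3.10.9.

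The 32 gene lists hold 1248 entries, of which 115 matched no gene, and 1429 genes matched. The vitellogenin and yolk list had no tested gene. The lists and the genes named were chosen with earlier results of these data known. Genes were named by rule. The rule takes the 10 largest changes in each direction called in both runs with an average log2 CPM from 3 up, a symbol that is not a clone name and no overlap between ages outside replicate 3. For each list it takes up to 4 members with the largest called change and up to 2 whose call or direction differs most between the runs. It adds *elavl3*, *fyna* and *fynb*, the 5 largest called interactions in each direction, and up to 3 genes in each direction in which replicate 3 lay farthest from its group at an average log2 CPM from 5 up. The rules name 200 genes, and the text gives values for some of them. Some genes that the rules name are not reported here.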

Additional observations from a re-analysis of the deposited data

Results flagged for a closer look

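In each group of 4 libraries, the gap of the highest or lowest library to its nearest neighbour was divided by the whole range, on log2 CPM, and ratios above Dixon's critical value for 4 samples were singled out. Chance gives this in about 1 of 20 groups. It held for 50 of 276 gene and age groups, the 138 genes with values at 3 and 5 dpf, and in 41 of the 50 the library was 5 dpf replicate 3. These genes were partly chosen because that library differed, so the count is a description.

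Replicate 3 was the highest at 5 dpf in 29 of these groups, with a ratio of 0.83 for *CELA1 (1 of many)*, 0.9 for *apoa1a*, 0.861 for *apom*, 0.946 for *gins4*, 0.963 for *hmgb2b*, 0.872 for *ptgdsb.1*, 0.886 for *mbpa*, 0.887 for *hbae3*, 0.833 for *hbbe2*, 0.944 for *xbp1*, 0.854 for *nppa*, 0.931 for *tnni2a.4*, 0.877 for *icn2*, 0.916 for *psmc3*, 0.898 for *pomp*, 0.914 for *rpl36*, 0.928 for *rpl29*, 0.972 for *cox8b*, 0.892 for *cycsb*, 0.905 for *cox7b*, 0.907 for *mt-nd3*, 0.831 for *hoxb9a*, 0.901 for *mogat2*, 0.918 for *apoda.1*, 0.835 for *vip*, 0.836 for *RPL41*, 0.969 for *rbp2a*, 0.928 for *ATP5MD* and 0.926 for *cyt1*.

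It was the lowest at 5 dpf with a ratio of 0.985 for *rab3ab*, 0.918 for *myrf*, 0.991 for *mag*, 0.931 for *hsf4*, 0.951 for *csf1ra*, 0.907 for *hlfa*, 0.879 for *elavl3*, 0.975 for *fynb*, 0.948 for *nav1b*, 0.923 for *ptprsa*, 0.961 for *znf319b* and 0.869 for *klf9*. Its median correlation with its group was also far below the others, at a ratio of 0.992.

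At 3 dpf the library that stood apart varied, with a ratio of 0.897 for *ctsbb* (replicate 4, the lowest), 0.852 for *apoa1a* (replicate 3, the lowest), 0.844 for *crybgx* (replicate 1, the lowest), 0.835 for *hbbe2* (replicate 3, the lowest), 0.845 for *hapln1a* (replicate 4, the lowest), 0.831 for *icn2* (replicate 2, the lowest), 0.939 for *atic* (replicate 1, the highest), 0.839 for *dbpb* (replicate 1, the lowest) and 0.845 for *cycsb* (replicate 3, the highest). The ratio of *ctsbb* rests on 3, 7, 3 and 0 counts. Whether the 3 dpf groups exceed the share that chance gives was not tested.

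The age change differed between *elavl3:Gal4* and WT larvae by edgeR's interaction test in 38 genes with all 16 libraries and in 505 without 5 dpf replicate 3. The log2 difference without that library was 1.402 for *ttr*, 1.116 for *mpeg1.2*, 0.667 for *egr4*, 1.194 for *msmo1*, 1.504 for *hmgcra*, 0.929 for *cyp51*, 1.383 for *fosab*, 1.215 for *fads2*, 1.202 for *junba*, 0.703 for *gad2* and 1.041 for *stxbp1b*. It was −1.290 for *apobb.2*, −0.827 for *mthfd1l*, −2.077 for *matn3a*, −1.903 for *cmn*, −2.629 for *tbxta*, −1.054 for *apoa1a*, −1.491 for *sncga*, −0.684 for *myrf*, −0.805 for *agr1*, −0.486 for *tnnt3a*, −1.439 for *col9a1b*, −0.355 for *krt97*, −1.024 for *icn2*, −0.636 for *paics*, −0.508 for *apoda.1*, −2.361 for *vimr2*, −1.976 for *cyldb*, −2.050 for *fkbp5*, −2.145 for *cyp2r1*, −1.322 for *klf9* and −0.658 for *cyt1*.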

How the results depend on the processing

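With all 8 libraries 5029 genes were called, with 11795 by limma with library weights, 9430 with all 6 groups in 1 fit and 2763 with a log2 fold change over 1. Leaving out 1 library gave from 3339 (without 3 dpf replicate 2) to 11616 (without 5 dpf replicate 3). Without 5 dpf replicate 3, 11616 genes were called, 3309 with a log2 fold change over 1, and from 10276 to 11342 when another library was left out. The interaction with genotype gave 38 genes in 16 libraries, with 186 by DESeq2, 608 by limma with library weights, 22 with a log2 fold change over 1 and from 17 to 505 without 1 library (505 without *elavl3:Gal4* 5 dpf replicate 3). Without that library it gave 505, with 809 by library totals, 1025 by DESeq2, 93 with a log2 fold change over 1, and from 244 (without WT 3 dpf replicate 3) to 949 (without *elavl3:Gal4* 3 dpf replicate 3). The cause was not tested.

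In the 8 libraries the sign of the log2 fold change turned in 10 of 138 genes. By library totals it was −0.28 for *hmgb2b*, −0.33 for *tnni2a.4*, −0.23 for *pomp* and −0.10 for *cyt1*. By limma with library weights it was −0.56 for *hmgb2b*, −0.72 for *tnni2a.4*, −0.29 for *icn2*, −0.54 for *pomp*, 0.32 for *elavl3* and −0.069 for *cyt1*. Leaving out 1 library gave −0.58 to 0.29 for *hmgb2b*, −0.58 to 0.13 for *xbp1*, −0.74 to 0.30 for *tnni2a.4*, −0.32 to 0.86 for *icn2*, −0.56 to 0.37 for *pomp*, −0.22 to 0.32 for *elavl3*, −0.088 to 1.39 for *RPL41*, −0.071 to 0.54 for *nav1b* and −0.077 to 0.26 for *cyt1*. Without replicate 3 the sign turned in 1 of 138 genes, *RPL41*, at 0.11 by limma and −0.29 to 0.22 without 1 library, and 7 genes lost their call under some alternative, among them *fyna* in the fit of all 6 groups (adjusted p = 0.0631). Of 32 interaction genes, 0 turned sign and 11 lost their call under the alternatives run without replicate 3. With that library included, 23 of the 32 lost their call and 2 turned sign, *apoda.1* to 0.18 and *krt97* to 0.015 (adjusted p = 0.912 and 0.992).

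Same-numbered libraries of both ages hardly deviated together (correlations 0.04, 0.10, 0.13 and −0.00 over genes, 2 of 4 closest to their own number). Without the replicates numbered 3 the correlations were 0.02, −0.04 and 0.01. Such values cannot exclude a shared clutch or collection, which the labels do not give, so pairing by number remains unknown. With a replicate block 3375 genes were called in 8 libraries and 11065 without 5 dpf replicate 3, and the interactions gave 27 and 689. The block gave −0.15 for *hmgb2b*, −0.12 for *rab3ab*, −0.25 for *tnni2a.4*, −0.11 for *pomp* and −0.38 for *nav1b* in 8 libraries, and 0.047 for *RPL41* in 7.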
